A study of Homo sapiens with 24 samples.

Results

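The 10 genes described here encode both neuropilins (NRP1 and NRP2), 5 class 3 semaphorins (SEMA3A, SEMA3B, SEMA3C, SEMA3E and SEMA3F) and 3 plexins (PLXNA1, PLXNA2 and PLXND1), out of 18417 genes measured. The family was chosen by the values of NRP2, which was lower with depletion of PKCδ in all 4 cell lines, so the changes of NRP2 are given below as a description with no test. The other 9 genes were listed with it as relatives, at a time when results of these data were known, and they are not the whole family: SEMA3D, SEMA3G, PLXNA3 and PLXNA4 are counted with the wider pathway below. Expression was measured in H2009 and H441 cells, which depend on K-ras for survival, and in A549 and H460 cells, which do not. All are non-small cell lung cancer (NSCLC) lines with mutant K-ras. Each line carried a stable lentiviral shRNA, either δ193, which targets PKCδ, or the scrambled shRNA δscr, and all 8 groups were kept in puromycin. Total RNA from 3 replicates per group was hybridized to 24 Affymetrix human gene arrays. No other shRNA against PKCδ was used here, so depletion of PKCδ and other effects of the δ193 sequence cannot be told apart.

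Class 3 semaphorins are secreted proteins known as guidance cues for growing axons and blood vessels. Most of them bind a neuropilin, which holds the ligand but has little signaling of its own, and a plexin carries the signal into the cell through its GTPase-activating domain. SEMA3A binds mainly NRP1 and SEMA3F mainly NRP2, whereas SEMA3E can bind PLXND1 with no neuropilin. Neuropilins are also co-receptors for VEGF, and SEMA3B and SEMA3F, both on the short arm of chromosome 3, are known as candidate tumor suppressors in lung cancer.

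Values are log2 array values after RMA, which subtracts background, equalizes the arrays and combines probes, for a transcript cluster, a group of probes that together read a single locus. A difference of 1 is therefore a change of 2 fold. Tests compare values between arrays for the same gene, never between genes. A gene is called high or low, also against the array median (the middle value over all clusters of an array), only as a rough description. A change was called at an adjusted p under 0.05 over all 18417 genes in limma, with the Benjamini-Hochberg adjustment, and a difference of at least 25% between the higher and the lower group. PRKCD, which encodes PKCδ, was lower with δ193 in each line, with changes between -1.26 (A549) and -2.40 (H441) in log2 value, and no δ193 array overlapped a δscr array of the same line. The arrays of H441 spread most, with a median residual SD of 0.184, against 0.0923 to 0.117 in the other lines. Keratin KRT18 was high in every group (log2 value 11.24 to 12.38). The arrays labelled H441 had EPCAM, CDH1, NKX2-1 and SFTPB at only 5.89, 6.41, 4.21 and 4.01 with δscr. Yet H441 is generally described as an epithelial line with surfactant genes. EPCAM and NKX2-1 were also lower with δscr in A549 (4.71 and 3.88) and H460 (5.45 and 3.61), which does not bear on the label of H441. CDH1 was lower in H460 (5.60) and higher in A549 (8.73). In H2009 EPCAM, CDH1 and NKX2-1 were higher (11.20, 11.23 and 5.55). The δscr mean of SFTPB was at most 4.22 (A549), and that of NAPSA was highest in H441 (5.09). The study states that its lines were authenticated by profiling. Labels were used here as given, and the identity of the arrays was not tested. The summed log2 level of 5 markers of endothelial cells, a cell type known for its neuropilins, lay between 5.67 and 6.07 on all arrays, with PECAM1 lower in H441 δ193 cells (by 0.51) as the only called change. PECAM1 was low there in both groups, at 4.13 with δscr and 3.63 with δ193. Each array averages over a culture, so fewer cells that express a gene and less RNA per cell cannot be told apart.

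NRP2, the neuropilin that binds SEMA3F and VEGFC, was lower in δ193 cells than in δscr cells of every line. In H2009 the log2 values of NRP2 were 6.45, 6.52 and 6.27 on the δ193 arrays, against 7.08, 7.09 and 6.93 on the δscr arrays. In H441 they were 6.01, 6.02 and 5.91 with δ193, against 6.79, 6.79 and 6.42 with δscr. The highest δ193 array thus lay below the lowest δscr array in both K-ras dependent lines. In A549 NRP2 was at 6.42, 6.61 and 6.51 with δ193, against 7.56, 7.35 and 7.47 with δscr. In H460 it was at 6.38, 6.33 and 6.40 with δ193, against 6.90, 6.78 and 7.09 with δscr. Here too the groups did not overlap, and A549 δscr cells had both the highest level and the widest gap. The change in log2 value was -0.95 in A549, -0.69 in H441, -0.62 in H2009 and -0.56 in H460 (standard error 0.10 for each), or between -48.3% (A549) and -32.0% (H460). Averaged over the lines, the change of -0.70 was number 41 from the lowest among 18417 genes. Of all genes, 128 (0.695%) had every δ193 array below every δscr array in all 4 lines, and 29 (0.157%) were called lower in all 4; NRP2 was chosen for this pattern, so nothing is read from its place among them.

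A second transcript cluster of NRP2, which had a mean of 5.41 over the 24 arrays against 6.67 for the cluster above, carries the same gene symbol; whether it reads the same NRP2 transcripts was not tested. Its mean values with δ193 and δscr were 5.48 and 6.64 in A549, 5.17 and 6.19 in H2009, 3.93 and 4.76 in H441, and 5.23 and 5.89 in H460. All δ193 arrays again lay below all δscr arrays of their line, with changes in log2 value of -1.17 in A549, -1.02 in H2009, -0.83 in H441 and -0.66 in H460. The drop was numerically larger than in the first cluster in each line, and A549 again had the widest gap. NRP2 was the only one of the 10 genes with more than 1 cluster.

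**Figure D1:**
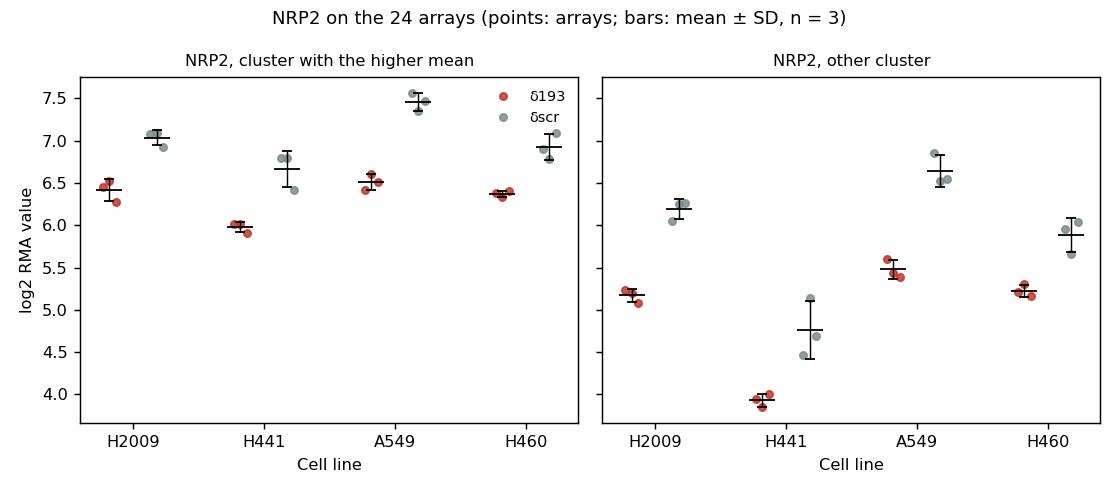
NRP2 in the 4 cell lines, with the transcript cluster of higher mean on the left and the other cluster on the right. Points show single arrays as log2 RMA values, red for δ193 and grey for δscr, with the mean and SD of 3 arrays. Within every line all red points lie below all grey points in both panels, and the mean difference runs between -0.56 and -1.17.

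The promoter windows of NRP2, SEMA3F and SEMA3B are shown because NRP2 is the gene the family was chosen for, and SEMA3F and SEMA3B had the largest decreases among the other members. Each window runs from 250 bases before to 50 bases after the start of the gene and is written 5′ to 3′ on the strand of the gene, from RefSeq on GRCh38.p14. The NRP2 window is chr2:205682251-205682550, the SEMA3F window is chr3:50154808-50155107 and the SEMA3B window is chr3:50259976-50260275, all on the plus strand. Capitals mark the GC box GGGCGG on either strand in NRP2 and SEMA3F, and the cyclic AMP response element TGACGTCA in SEMA3B.
NRP2 promoter: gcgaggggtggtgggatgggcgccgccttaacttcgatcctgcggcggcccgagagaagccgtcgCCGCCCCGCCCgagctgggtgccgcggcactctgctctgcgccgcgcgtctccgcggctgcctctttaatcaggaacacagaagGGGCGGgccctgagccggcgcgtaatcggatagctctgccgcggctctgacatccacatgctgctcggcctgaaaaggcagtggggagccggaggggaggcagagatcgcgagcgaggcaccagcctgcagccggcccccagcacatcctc
SEMA3F promoter: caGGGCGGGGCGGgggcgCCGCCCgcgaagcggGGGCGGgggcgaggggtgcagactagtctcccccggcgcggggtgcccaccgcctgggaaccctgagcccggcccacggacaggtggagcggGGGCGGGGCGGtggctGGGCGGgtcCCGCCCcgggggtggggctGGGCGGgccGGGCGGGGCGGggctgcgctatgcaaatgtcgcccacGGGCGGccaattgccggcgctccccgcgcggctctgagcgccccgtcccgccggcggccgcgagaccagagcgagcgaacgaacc
SEMA3B promoter: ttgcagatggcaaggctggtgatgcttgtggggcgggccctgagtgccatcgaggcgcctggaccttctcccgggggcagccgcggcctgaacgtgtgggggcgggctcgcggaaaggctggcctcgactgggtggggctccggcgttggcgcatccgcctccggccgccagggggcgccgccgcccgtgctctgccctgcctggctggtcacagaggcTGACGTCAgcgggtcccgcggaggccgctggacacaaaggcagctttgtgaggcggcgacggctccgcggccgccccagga
Windows were found for 8 of the 10 members, without NRP1 and SEMA3A, and 34943 windows of the same length served as background. The GC box, of which 44.9% of all windows held at least 1, was found 12 times in SEMA3F, 9 times in PLXND1, 5 times in PLXNA1, 4 times in SEMA3B and 3 times each in NRP2 and PLXNA2, overlaps included, and not in SEMA3C or SEMA3E. Those last windows also had the lowest GC content, 36% in SEMA3C and 47.3% in SEMA3E, against 70% to 87.3% in the other 6. How many copies of the GC box windows of such GC content usually hold was not counted. The motif TGACGTCA was present in SEMA3B and in 1.84% of all windows, and the E-box CACGTG in SEMA3E and in 7.23%. The CCAAT box, held by 34.6% of all windows, occurred in SEMA3C and SEMA3F, and the AP-1 motif TGACTCA, held by 4.96%, in none of the 8; both strands were searched for each motif. Only the window at the start of the gene was searched, while SEMA3B, SEMA3C, SEMA3E and SEMA3F have 5, 2, 2 and 3 windows listed. SEMA3C and SEMA3E were lower in δ193 cells of H441 as SEMA3B and SEMA3F were. Whether any of these motifs has a part in the decreases was not tested.

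NRP1, the neuropilin that SEMA3A prefers, fell with δ193 in both K-ras dependent lines and was not called in the independent ones. In H2009 its log2 values were 7.34, 7.40 and 7.33 with δ193, against 7.76, 7.83 and 7.69 with δscr (change -0.40, SE 0.10, adjusted p = 0.0193 in limma). In H441 they were 6.73, 6.98 and 6.40 with δ193, against 7.34, 7.29 and 7.33 with δscr (change -0.62, SE 0.10, adjusted p = 0.000161). The δ193 arrays lay below the δscr arrays in both lines, and those of H441 spread more. In A549, where NRP1 was highest, the values were 8.99, 9.09 and 9.02 with δ193, against 9.25, 9.22 and 9.16 with δscr, a difference of -0.18 (95% confidence interval -0.39 to 0.03) that did not pass the test although the groups did not overlap. In H460 the values were 7.16, 7.20 and 7.13 with δ193, against 6.92, 7.02 and 7.16 with δscr, and the groups overlapped. The change of NRP1 differed among the 4 lines (adjusted p = 0.00452, limma F test) and between the K-ras classes, with means of -0.51 in the dependent and -0.02 in the independent lines (difference -0.49, SE 0.10, adjusted p = 0.00561). The call in H2009 was lost without δ193 array 1 or 3 or without δscr array 1 or 2 of that line, where the change was between -0.40 and -0.37. The call in H441 was lost with H441 fitted on its own arrays, and the class call at a fold of at least 1.5.

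PLXND1, the receptor for SEMA3E, was the one member called higher in some lines and lower in others. In A549 its log2 values were 7.55, 7.61 and 7.63 with δ193, against 6.90, 7.17 and 7.13 with δscr (change 0.53, SE 0.10, adjusted p = 0.00162 in limma). In H2009 they were 6.33, 6.38 and 6.22 with δ193, against 6.00, 5.83 and 5.83 with δscr (change 0.42, SE 0.10, adjusted p = 0.0109). PLXND1 was therefore higher with δ193 in one line of each K-ras class. In H441 it was at 6.69, 6.68 and 6.73 with δ193, against 7.56, 7.13 and 7.17 with δscr (change -0.58, SE 0.10, adjusted p = 0.000226). In H460 it was at 6.84, 6.82 and 6.69 with δ193, against 7.12, 7.11 and 7.14 with δscr (change -0.34, SE 0.10, adjusted p = 0.0444). No line had overlapping groups, and the change differed among lines (adjusted p = 6.64e-06) but was not called between the K-ras classes (difference -0.17, SE 0.10, adjusted p = 0.384). The H460 call lay close to the threshold and was lost in 15 of 24 fits that left out 1 array, among them all 6 without an H460 array, with changes between -0.37 and -0.29. The H2009 call was lost without δ193 array 2 or without δscr array 2 or 3, and the H441 call with H441 fitted on its own arrays.

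PLXNA1 and PLXNA2, class A plexins that partner with neuropilins in the receptors for class 3 semaphorins, were called in A549 and were not called in the other 3 lines. PLXNA1 was at 6.44, 6.51 and 6.33 with δ193 in A549, against 6.94, 6.82 and 6.72 with δscr (change -0.40, SE 0.11, adjusted p = 0.0454 in limma). PLXNA2 moved the other way there, with 4.92, 5.20 and 4.93 with δ193, against 4.68, 4.58 and 4.50 with δscr (change 0.43, SE 0.11, adjusted p = 0.0193). Neither gene had overlapping groups in A549. The remaining class A plexins, PLXNA3 and PLXNA4, were not called in A549 (0.50, adjusted p = 0.11, and 0.05, adjusted p = 0.943) or in another line. Elsewhere PLXNA1 changed by 0.01 in H2009, 0.17 in H441 and 0.12 in H460, and PLXNA2 by -0.25, -0.29 and -0.00, none of them called. The change of PLXNA2 differed among the lines (adjusted p = 0.00626) and by K-ras class, with means of -0.27 in dependent and 0.21 in independent lines (difference -0.48, SE 0.11, adjusted p = 0.0104), whereas that of PLXNA1 was not called among the lines (adjusted p = 0.0559). The PLXNA1 call was lost in 18 of 24 fits that left out 1 array, among them those without any A549 array but δscr array 3, with changes between -0.44 and -0.34. The PLXNA2 call was lost without δ193 array 2 or without δscr array 2 or 3 of A549. PLXNA2 was a low value, at 4.55 to 4.59 with δscr against array medians of 4.78 to 4.91. It was the only member left out when genes were limited to those above the median mean.

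SEMA3E, which signals through PLXND1, was lower with δ193 in H460 and H441. In H460 its log2 values were 6.27, 6.30 and 6.19 with δ193, against 7.14, 7.19 and 7.15 with δscr, a change of -46.8% (-0.91 on the log2 scale, SE 0.10, adjusted p = 1.32e-06 in limma). In H441 they were 7.30, 7.57 and 7.53 with δ193, against 7.99, 8.12 and 7.92 with δscr (change -0.54, SE 0.10, adjusted p = 0.000441). The δ193 arrays were below all δscr arrays in both of these lines, the ones where PLXND1 also fell. In H2009 SEMA3E was at 6.41 ± 0.16 with δ193 and 6.22 ± 0.09 with δscr (SD, n = 3 arrays each), and in A549 at 4.08 ± 0.15 and 3.88 ± 0.07. Neither difference passed the test (adjusted p = 0.33 and 0.327 in limma), and both lay above 0. The A549 values lay below the array medians of 4.78 to 4.91, where a decrease may not be measurable. The change of SEMA3E differed among the lines (adjusted p = 4.83e-06).

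SEMA3F, the ligand that prefers NRP2, had the largest decrease of the 9 other members. In H441 its log2 values were 6.78, 6.56 and 6.34 with δ193, against 8.40, 7.90 and 7.74 with δscr, a change of -63.5% (-1.45 on the log2 scale, SE 0.14, adjusted p = 8.99e-08 in limma). In H460 they were 5.91, 5.92 and 5.89 with δ193, against 6.42, 6.41 and 6.49 with δscr (change -0.53, SE 0.14, adjusted p = 0.018). In H2009 the change of -0.21 and in A549 that of -0.15 did not pass the test (adjusted p = 0.485 and 0.73), and the groups overlapped. The change of SEMA3F differed among the lines (adjusted p = 0.000114) and by K-ras class, with means of -0.83 in the dependent and -0.34 in the independent lines (difference -0.49, SE 0.14, adjusted p = 0.0352). H441 supplied most of the dependent mean. The H460 call was lost without any 1 of its arrays but δscr array 1, although the change stayed between -0.55 and -0.51.

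SEMA3B, which shares chromosome 3 with SEMA3F, fell in the same lines. In H441 its log2 values were 6.72, 7.08 and 7.14 with δ193, against 8.18, 8.16 and 7.93 with δscr, a change of -53.7% (-1.11 on the log2 scale, SE 0.17, adjusted p = 5.75e-05 in limma). In H460 they were 6.82, 6.70 and 6.70 with δ193, against 7.46, 7.43 and 7.44 with δscr (change -0.70, SE 0.17, adjusted p = 0.0104). The groups stood apart in both lines and overlapped in H2009 (change -0.04, adjusted p = 0.948) and A549 (change 0.20, adjusted p = 0.699). The A549 δscr arrays of SEMA3B ran between 4.74 and 5.65, and without the lowest of them, array 1, the change was -0.08. The change differed among the lines (adjusted p = 0.00119) but was not called by K-ras class (adjusted p = 0.316).

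SEMA3A, the classical ligand of NRP1, was called lower in H441 and in no other line. Its log2 values there were 8.12, 8.68 and 7.70 with δ193, against 9.14, 8.98 and 8.83 with δscr (change -0.82, SE 0.15, adjusted p = 0.000485 in limma). The δ193 arrays spread over almost 1 log2 unit, yet the highest stayed below the lowest δscr array. In A549 SEMA3A was at 6.65, 6.60 and 6.65 with δ193, against 7.17, 6.89 and 7.14 with δscr, a difference of -0.43 (95% confidence interval -0.74 to -0.12) that did not pass the test (adjusted p = 0.113 in limma) although the groups did not overlap. In H2009 and H460 the differences were -0.02 and -0.07 with overlapping groups. The change differed among the lines (adjusted p = 0.0289).

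SEMA3C, which binds both neuropilins, was also called lower in H441 and in no other line. Its log2 values were 5.28, 5.90 and 5.23 with δ193, against 6.42, 6.24 and 5.91 with δscr (change -0.72, SE 0.15, adjusted p = 0.00188 in limma), so that the groups came within 0.01 of each other. In A549 they were 8.56, 8.76 and 8.47 with δ193, against 8.88, 9.01 and 9.20 with δscr (change -0.44, adjusted p = 0.12). In H2009 the δ193 arrays, between 5.74 and 6.03, also lay below the δscr arrays, between 6.13 and 6.17 (change -0.26, adjusted p = 0.448). The groups overlapped in H460 (change -0.00, adjusted p = 0.998), and a difference among the lines was not called (adjusted p = 0.107). The H460 means, 4.66 with δ193 and 4.67 with δscr, lay below the array medians of 4.78 to 4.91, where a decrease may not be measurable.

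**Figure D2:**
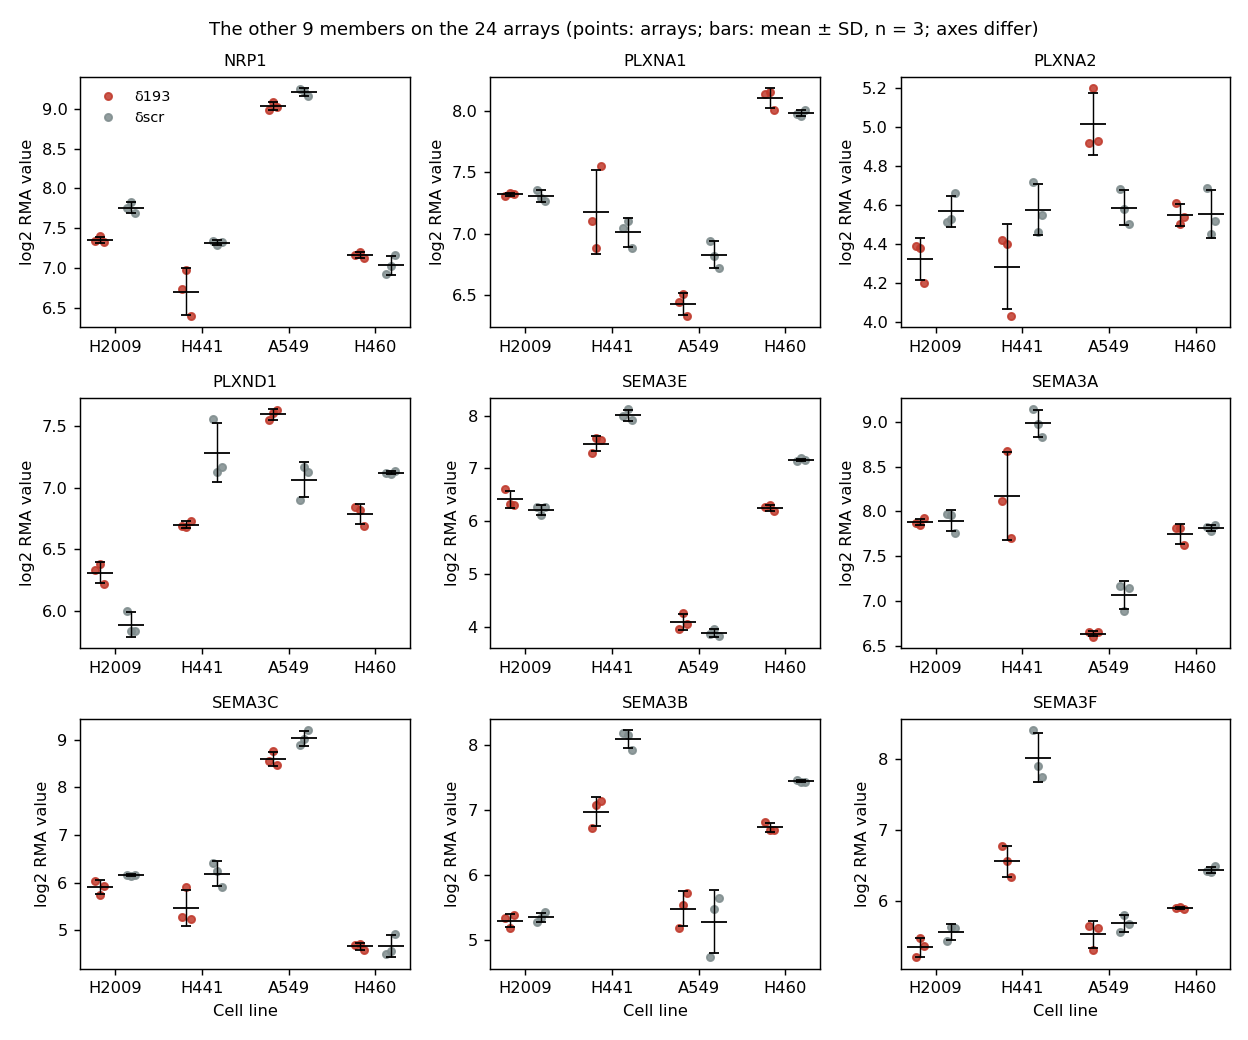
The 9 members other than NRP2 on the 24 arrays, 1 gene per panel with its own vertical axis. Points show single arrays as log2 RMA values by cell line, red for δ193 and grey for δscr, with the mean and SD of 3 arrays. In H441 the red points of SEMA3F lie between 6.34 and 6.78 and the grey ones between 7.74 and 8.40, while PLXND1 has red above grey in H2009 and A549 and below it in H441 and H460.

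Over the 9 members other than NRP2, 7 were called lower and 0 higher in H441, where 14.3% of all genes were called (7.22% lower and 7.09% higher). The 2 that were not called there were PLXNA1 and PLXNA2, and the median change of the 9 in H441 was -0.62 against 0.00 over all genes. In H460, 4 were called lower and 0 higher, against 5.45% of all genes called (3.44% lower and 2.01% higher), with a median change of -0.07 against 0.01. In A549, 1 was lower and 2 were higher, against 4.63% of all genes (2.58% lower and 2.05% higher), with a median of -0.15 against 0.01. In H2009, 1 was lower and 1 was higher, against 4.91% of all genes (2.25% lower and 2.66% higher), with a median of -0.04 against 0.01. In all, 16 of 36 changes were called, 13 of them lower, and each of the 9 genes was called in at least 1 line, against 22.5% of all genes. Lower calls in at least 2 lines were found for 5 genes (NRP1, SEMA3B, SEMA3E, SEMA3F and PLXND1), against 2.75% of all genes, and in 3 or more lines for 0. Of the relatives outside these 9, SEMA3G, PLXNA3 and PLXNA4 were called in no line and SEMA3D was higher in H2009 (0.47, adjusted p = 0.00796 in limma). SEMA3D was low there, at 3.72 with δ193 and 3.24 with δscr against array medians of 4.78 to 4.91. The groups did not overlap for 8 of the 9 in H441 (21.3% of all genes), 6 in A549 (24%), 5 in H2009 (25.9%) and 4 in H460 (34.2%). With H441 fitted on its own arrays, SEMA3B and SEMA3F kept their calls and the other 5 lost them. The arrays of H441 spread most, and 4 cell type markers also fell there (CDH1 by 1.20, KRT19 by 0.55, PECAM1 by 0.51 and NAPSA by 0.46). PECAM1 (4.13 with δscr, 3.63 with δ193) lay below the array medians of 4.78 to 4.91, and NAPSA (5.09 and 4.63) lay close to them. The part of the spread and of the markers in the result was not tested. By the methods' own unadjusted test 5 members were called in H441, without SEMA3A and SEMA3C. Markers also rose in the other lines, KRT19 in H460 (by 1.20) and the neural marker MAP2 in H2009 (by 0.65) and A549 (by 0.48), and their part was likewise not tested. MAP2 was low with δscr, at 4.46 in H2009 and 3.64 in A549. In A549, SEMA3A and SEMA3C were called lower as well, for 5 in all, when the H441 arrays were left out of the fit.

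**Figure D3:**
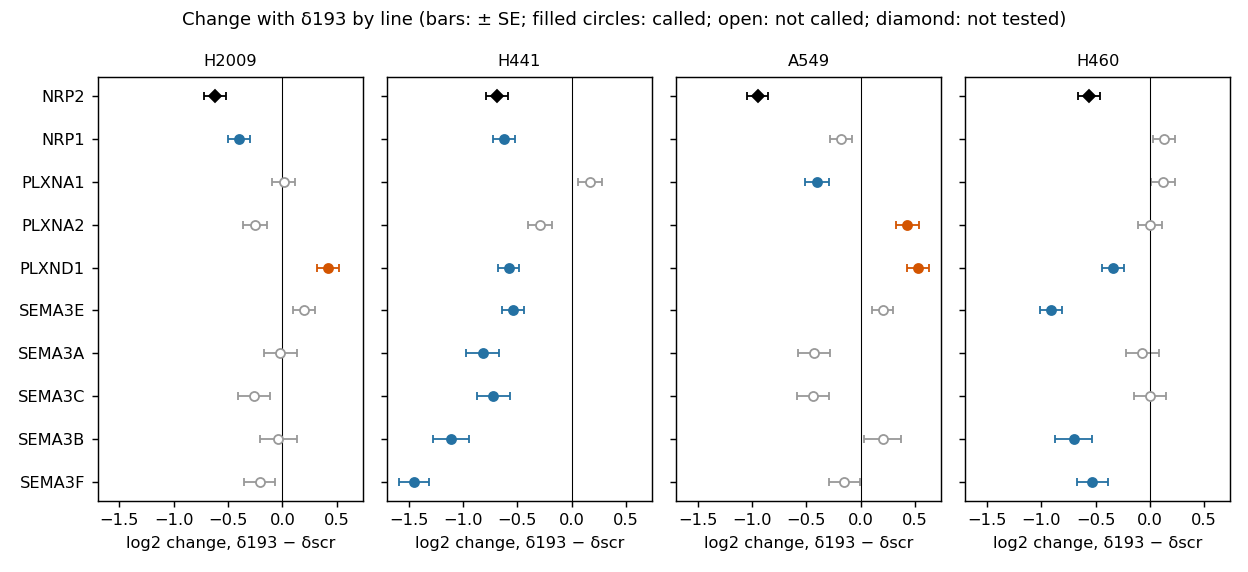
Change of each member with δ193 in the 4 cell lines, as δ193 minus δscr in log2 value with the standard error of the fit. Blue circles were called lower, orange circles higher and open circles neither, and the black diamonds are NRP2, which was not tested. The points of H441 reach from -1.45 (SEMA3F) to 0.17 (PLXNA1), with the 5 semaphorins all below 0.

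A change that passes the test in one line and not in another is not shown to differ between them, so the differences among lines were tested directly. The change of 7 of the 9 members differed among the 4 lines (14.1% of all genes did), with PLXNA1 and SEMA3C as the exceptions. By K-ras class, 3 of the 9 were called (4.65% of all genes), namely NRP1, SEMA3F and PLXNA2, and in each the mean change was lower in the dependent lines. The size of these differences was similar, -0.49, -0.49 and -0.48. The lines of a class were not alike, since SEMA3F changed by -0.21 in H2009 and -1.45 in H441, and PLXNA2 by 0.43 in A549 and -0.00 in H460. The class test uses the spread between replicate arrays and does not measure how lines vary within a class. Its calls therefore describe these 4 lines and not K-ras dependence in general. The class of the H441 arrays rests on their label, whose marker levels are given above.

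The δscr cells give the level of each member before depletion, and 42 of 60 differences between pairs of lines were called (43.2% over all genes and pairs). By pair, 8 of 10 members differed between A549 and H460 (38.9% of all genes), 6 between H441 and H460 (45.4%), and 7 each between H441 and A549 (48.4%), H2009 and H441 (49.3%), H2009 and A549 (41.4%) and H2009 and H460 (35.5%). SEMA3C had the widest range, with 9.03 ± 0.16 in A549, 6.19 ± 0.25 in H441, 6.16 ± 0.02 in H2009 and 4.67 ± 0.23 in H460 (SD, n = 3 arrays each), a span of 20.6 fold. H441 and H2009 did not differ (adjusted p = 0.87 in limma), and the other neighbours did. SEMA3E followed with 8.01 in H441, 7.16 in H460, 6.22 in H2009 and 3.88 in A549, a span of 17.5 fold in which every neighbour differed. SEMA3C and SEMA3E thus had opposite extremes in A549. The lowest of these means, 4.67 for SEMA3C in H460 and 3.88 for SEMA3E in A549, lay below the array medians of 4.78 to 4.91. No background level was measured, so whether these values stand above background is not known.

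SEMA3B and SEMA3F shared the order of their highest lines in δscr cells. SEMA3B was at 8.09 in H441, 7.44 in H460, 5.35 in H2009 and 5.29 in A549, where the last pair did not differ (adjusted p = 0.786 in limma). SEMA3F was at 8.01 in H441, 6.44 in H460, 5.68 in A549 and 5.57 in H2009, and again the last pair did not differ (adjusted p = 0.529). SEMA3B, SEMA3E and SEMA3F were highest in H441 and next in H460, and these are the lines in which δ193 lowered them. The same δscr arrays enter the level and the change, so this is a description and not a test. SEMA3A was at 8.99 in H441, 7.90 in H2009, 7.82 in H460 and 7.07 in A549, where H2009 and H460 did not differ (adjusted p = 0.74).

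Among the receptors, NRP1 varied most, with 9.21 in A549, 7.76 in H2009, 7.32 in H441 and 7.03 in H460, a span of 4.52 fold. The step between H441 and H460 was not called (1.22 fold, adjusted p = 0.0211 in limma). NRP2 was at 7.46 in A549, 7.03 in H2009, 6.93 in H460 and 6.67 in H441, a span of 1.73 fold, and only A549 stood apart from its neighbour. Both neuropilins were therefore highest in A549. PLXND1 was at 7.28, 7.12 and 7.07 in H441, H460 and A549, which did not differ from each other, and at 5.89 in H2009, below all of them. PLXNA1 was at 7.99 in H460, above 7.31 in H2009, 7.01 in H441 and 6.83 in A549, and PLXNA2 lay between 4.55 and 4.59 in all 4 lines with 0 of 6 pairs called.

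The genes whose pattern was most like that of NRP2 over the 24 arrays were FAM171A1, JAK1, WDR45B, NMNAT2 and RASSF5, with Pearson r between 0.84 and 0.90. With the mean of each line subtracted, they were JAK1, RAB23, FERMT2, FAM171A1 and SNX27, with r between 0.92 and 0.94. JAK1 and FAM171A1 were in both sets, and JAK1, a kinase of cytokine receptors, averaged 9.14 ± 0.07 with δ193 and 9.81 ± 0.11 with δscr in A549 (SD, n = 3 arrays each). The arrays share lines and shRNAs, so these values describe likeness only. On the second measure the members most like NRP2 were SEMA3C (0.72), SEMA3A (0.66), SEMA3F (0.65) and NRP1 (0.64), while PLXND1 (-0.09) and PLXNA2 (0.01) were not alike.

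Of 57 other genes listed for this pathway by family and role, 53 were measured. In all, 28 of their 212 changes were called (21 lower and 7 higher). At least 1 call was found for 20 of the 53 (22.5% of all genes), and lower calls in at least 2 lines for 4 (2.75%). H441 had 12 lower and 1 higher of 53 (7.22% and 7.09% of all genes), and H2009 had 2 lower and 4 higher (2.25% and 2.66%). A549 had 5 lower and 0 higher (2.58% and 2.05%), and H460 had 2 lower and 2 higher (3.44% and 2.01%). The median change was -0.07 in H441, -0.05 in A549, and 0.01 in both H2009 and H460. The medians over all genes are those given above for each line.

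CFL1, which encodes cofilin, the actin-severing protein at the end of the semaphorin pathway, was the only one of the 53 called lower in 3 lines. In H2009 it was at 10.44 ± 0.05 with δ193 and 11.36 ± 0.13 with δscr (change -0.92, adjusted p = 0.000101 in limma), and in H441 at 9.90 ± 0.45 and 10.99 ± 0.06 (change -1.09, adjusted p = 3.81e-06; SD, n = 3 arrays each). In A549 the change was -0.54 (adjusted p = 0.0153, lost without δ193 array 1 or 3 or δscr array 2) and in H460 -0.07 (adjusted p = 0.861). The change of CFL1 differed among the lines (adjusted p = 0.002). Collapsin response mediators, which relay SEMA3A signals to the cytoskeleton, moved in different lines. DPYSL2 was higher with δ193 in H2009 (0.36, adjusted p = 0.012, lost without δ193 array 1 or δscr array 3) and lower in H441 (-0.39, adjusted p = 0.00205, lost without δ193 array 1) and H460 (-0.75, adjusted p = 2.71e-06). In A549, where CRMP1 was not called (-0.42, adjusted p = 0.21), DPYSL4 fell (-0.38, adjusted p = 0.0312), and so did DPYSL5 (-0.83, adjusted p = 0.00071) and DPYSL3 (-0.84, adjusted p = 0.0104). For DPYSL3, δscr array 1 stood at 9.28 against 7.97 for the lowest δscr array, and the change without it was -0.43. DPYSL5 had δscr means of 3.95 in H2009, 4.20 in H441 and 4.09 in H460, below the array medians of 4.78 to 4.91, where a decrease may not be measurable.

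Changes were also called for other semaphorins, plexins and co-receptors. SEMA6D, a membrane semaphorin that binds PLXNA1, had the largest decrease of the list, to 6.31 ± 0.16 with δ193 in H460, against 8.28 ± 0.07 with δscr (SD, n = 3 arrays each; change -1.97, adjusted p = 2.71e-09 in limma). In H441 it was at 5.76 ± 0.13 with δ193 and 7.08 ± 0.03 with δscr (change -1.32, adjusted p = 6.03e-07), and it was not called in H2009 (0.03) or A549 (0.15). SEMA6D thus fell in H441 and H460, as SEMA3B, SEMA3E and SEMA3F did. In A549 its δscr mean was 3.81, below the array medians of 4.78 to 4.91, where a decrease may not be measurable. L1CAM, which forms a receptor complex with NRP1, fell in H441 (-1.20, adjusted p = 8.75e-08) and was not called in H460 (0.22, adjusted p = 0.336). SEMA7A, a membrane-anchored semaphorin, rose in H460 (0.79, adjusted p = 0.00273), and PLXDC2, a protein with a plexin-like domain, rose in H2009 (0.65, adjusted p = 0.00555). SEMA4D, the ligand of plexin B1, was called lower in H2009 (-0.54, adjusted p = 0.0263) and A549 (-0.53, adjusted p = 0.0322), but its second cluster moved by 0.35 and 0.10 in those lines, and neither call held for the mean of the clusters. The call in H2009 was lost without any 1 of the 6 H2009 arrays, and that in A549 without δ193 array 1 or 3 or δscr array 1 or 3. Of the 7 VEGF ligands and receptors measured, VEGFA was called, in H441 (0.72, adjusted p = 0.00473), where its groups overlapped.

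**Figure D4:**
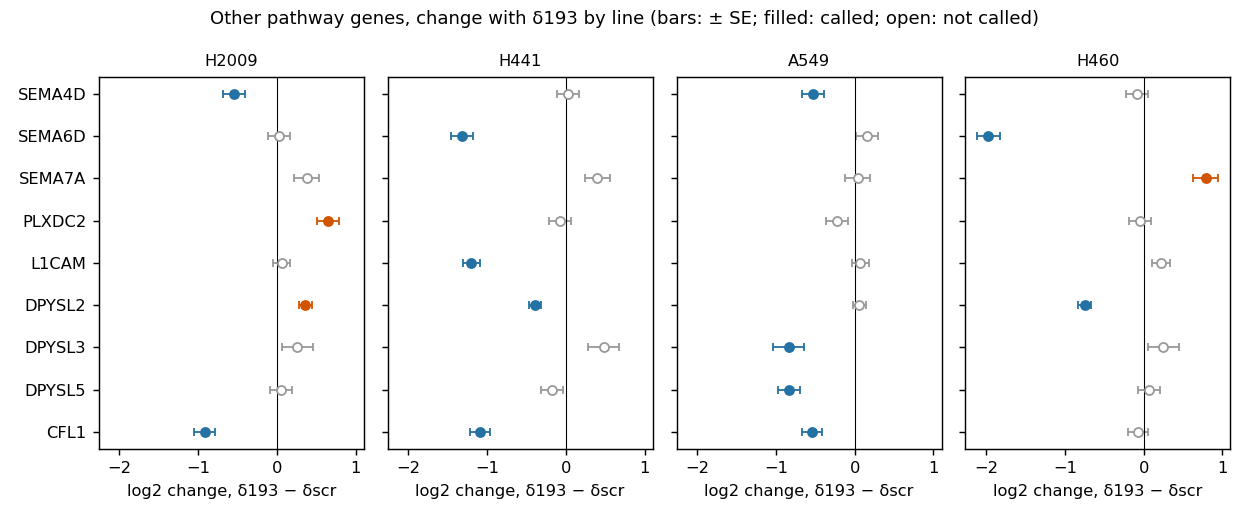
Change with δ193 in the 4 cell lines for the 9 pathway genes outside the family that are described in most detail, as δ193 minus δscr in log2 value with the standard error of the fit. Blue circles were called lower, orange circles higher and open circles neither. CFL1 is below 0 in all 4 lines but called in 3, and SEMA6D reaches -1.97 in H460.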

How the data were processed

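The authors deposited 1 table of log2 values for the 24 arrays, which they made by RMA with Affymetrix Power Tools. For both tools the version, and for the probes the annotation release, is not given in the sources used here. Depth does not apply to arrays, no background level was measured, and 3 arrays per group limit the precision. P-values reflect the spread between the 3 replicates of a group, which the study describes as biological. For each gene this spread was pooled over all groups and adjusted in limma by the spread of the other genes. H441 and the lines that spread less therefore share the same estimate.

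Of 33252 clusters, 19460 had 1 symbol (19429 updated through the Entrez ID, 31 kept as listed), 1754 had several and 12038 had none. Where a gene had several clusters (769 genes), the cluster of highest mean stood for it, and 18417 genes were tested. limma 3.58.1 in R 4.3.3 was fitted with 1 coefficient per group and 16 residual degrees of freedom. Contrasts compared δ193 with δscr within each line, the changes among lines (F test) and by K-ras class, and the δscr groups in pairs. The scripts were tested on simulated arrays. The study's methods name Student's test within each line, which was an alternative.

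The members and lists were chosen with earlier results of these data known. The rule for named genes was PRKCD, all 10 members, and from the pathway list the up to 3 called genes with the largest change in each line and any called the same way in 2 or more lines, plus the 5 genes most like NRP2 by each measure. VEGFA, CRMP1, DPYSL4, SEMA3D, SEMA3G, PLXNA3, PLXNA4 and the markers with a called change were named after their values were seen. SEMA4C, VEGFD, RHOD and GIPC1 had no cluster with a single symbol. Promoter windows came from RefSeq on GRCh38.p14 and were searched for 5 motifs. Alternatives covered the test, the normalization, filters, thresholds, gene summary, a replicate block and each array left out; array weights and a fit without H441 were added after the values were seen.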

Additional observations from a re-analysis of the deposited data

Results flagged for a closer look

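The change with δ193 differed among the 4 cell lines, by an F test in limma adjusted over all genes, for 7 members of the family. The adjusted p was 0.00452 for NRP1, 0.0289 for SEMA3A, 0.00119 for SEMA3B and 4.83e-06 for SEMA3E. It was 0.000114 for SEMA3F, 0.00626 for PLXNA2 and 6.64e-06 for PLXND1, which rose in H2009 and A549 and fell in H441 and H460. SEMA3E lay below the array medians in A549, as given above.

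Of the 53 pathway genes measured, 12 differed among the lines by the same test, against 14.1% of all genes. The 9 described in detail were picked by their called changes in these arrays, so the 7 of them that differed are a description. The adjusted p was 0.002 for CFL1, 0.0115 for PLXDC2, 1.03e-07 for SEMA6D and 2.52e-06 for L1CAM. It was 0.00582 for DPYSL3, 0.00834 for DPYSL5 and 3.71e-06 for DPYSL2, which was higher with δ193 in H2009 and lower in H441 and H460. SEMA6D lay below the array medians in A549, PLXDC2 in H441 and H460, and DPYSL5 in every line but A549.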

How the results depend on the processing

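Calls depended on the settings, in H441 also where the adjusted p was small: the methods' own test with adjustment called none of its members, SEMA3F and SEMA3B included. For the members and the 9 pathway genes described in detail, no called change reversed under any alternative that was run. The precision is limited by 3 arrays per group, by the spread of H441 and by the use of 1 PKCδ shRNA.

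Called members numbered 7 in H441, 4 in H460, 3 in A549 and 2 in H2009. By the methods' own test with adjustment they numbered 0 in each of H2009, H441 and A549, and by that test unadjusted 5 in A549 and 5 in H441, where SEMA3A and SEMA3C lost their calls. DPYSL3 in A549 lost its call by that test too. With H441 fitted alone 2 were called there. At a fold of at least 1.5 they were 0 in H2009, 0 in A549 and 2 in H460, and 0 differed by K-ras class, against 3. A549 had 5 without the H441 arrays and 5 with array weights. Leaving out 1 array at a time gave 0 to 2 in H2009 (0 without δscr array 2, 1 without any other H2009 array), 7 to 8 in H441, 1 to 5 in A549 (1 without δ193 array 2 or δscr array 2, 5 without H441 δ193 array 2) and 2 to 4 in H460 (2 without any H460 array but δscr array 1).

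Called pathway genes numbered 13 in H441, 6 in H2009, 5 in A549 and 4 in H460. By the methods' own test they were 8 in H441 and 9 in H460 unadjusted, and 2 in H2009, 0 in H441 and 1 in A549 after adjustment. Each line fitted alone gave 4 in H441 and 9 in H460, and a fold of 1.5 gave 2 in H2009, 6 in H441 and 2 in A549. Genes above the median mean gave 3 in A549, array weights 9 in A549 and 9 in H460, and the fit without H441 arrays 9 in H460. Without 1 array they ran between 3 (δscr array 3 of H2009) and 6 in H2009, 2 and 7 in A549 (2 without δ193 array 3, 3 without δscr array 1 or 2), 10 and 15 in H441, and 3 and 6 in H460.

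With the mean over its clusters NRP2 changed by -0.82 in H2009 and -1.06 in A549. Without 1 array its change ran between -1.0 and -0.90 in A549, -0.81 and -0.63 in H441, -0.67 and -0.55 in H2009, and -0.63 and -0.47 in H460. Likewise, 6 to 9 members differed among lines, 2 to 3 by K-ras class, and 41 to 43 of the 60 baseline pairs were called.

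The main fit did not pair the arrays by replicate number. In all, 11 of 24 arrays deviated most like the array of their own number in the other group. These were 4 of 6 in H2009, 3 of 6 each in H441 and A549, and 1 of 6 in H460. The correlations of same-numbered arrays were between 0.10 and 0.28 in H2009, -0.09 and 0.02 in H460, -0.01 and 0.08 in A549, and 0.01 and 0.10 in H441. With the number as a block 7 members were called in H441, 3 in H460 (without PLXND1), 2 in A549 (without PLXNA1) and 2 in H2009, and SEMA4D lost both calls.

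Only changes that were not called reversed. PLXNA1 in H2009 was -0.01 with equal array medians, SEMA6D in H2009 -0.02 by quantile normalization, SEMA4D -0.16 in H441 and 0.07 in H460 as a mean of clusters, and with array weights L1CAM in A549 was -0.03 and PLXNA2 in H460 0.02. Without 1 array the ranges were, in H2009, -0.09 to 0.02 for SEMA3A, -0.09 to 0.01 for SEMA3B, -0.01 to 0.04 for PLXNA1, -0.08 to 0.10 for SEMA6D and -0.07 to 0.13 for DPYSL5. In H441 they were -0.02 to 0.31 for PLXNA1 and -0.11 to 0.26 for SEMA4D. In A549 they were -0.08 to 0.38 for SEMA3B, -0.05 to 0.37 for SEMA6D, -0.06 to 0.18 for L1CAM and -0.06 to 0.15 for SEMA7A. In H460 they were -0.08 to 0.13 for SEMA3C, -0.05 to 0.06 for PLXNA2, -0.11 to 0.05 for PLXDC2, -0.16 to 0.02 for SEMA4D and -0.01 to 0.19 for DPYSL5. The cause of these shifts was not tested.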
